A study of Mus musculus with 36 samples.

Results

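The genes described here encode the degradative machinery of the lysosome and the proton pump that acidifies it. Of the 32285 mouse genes in the count table, 50 were taken: 27 named lysosomal genes and all 23 genes whose symbols start with Atp6v0 or Atp6v1. The rule itself uses names and no measured value, but the genes were chosen with earlier results of these data known. By role they were 3 transcription factors (Tfeb, Tfe3 and Mitf), 7 membrane proteins, 8 cathepsins and other proteases, 5 glycosidases and 4 proteins of lipid handling and activation. By symbol, 9 were placed in the V0 sector of the V-ATPase and 14 in its V1 sector. Atp6v1fnb, a gene beside Atp6v1f, is among the V1 genes by its symbol only, which does not make it a subunit. RNA had been sequenced from 2 mouse mammary carcinoma lines, E0771 and AT-3. Each line had been held for 24 h in 40 mM KCl with 10 µM BMS204352, in 40 mM KCl with 10 µM NS11021, in 10 µM BMS204352, in 10 µM NS11021, in 40 mM KCl, or in DMSO, the solvent control. NS11021 and BMS204352 are openers of large-conductance, calcium-activated potassium (BK) channels, and added KCl depolarises cells by raising extracellular potassium. Each of the 12 groups had 3 libraries, 36 in all. Whether the 3 came from separate cultures, and whether the KCl medium also held DMSO, is not given in the sources used here, so p-values measure only the spread between these libraries, which may be technical. No salt or osmotic control for KCl was analysed, and each line is a single established line.

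Lysosomal proteases, glycosidases and lipid-handling proteins work at acid pH. The V-ATPase supplies that acid: its V1 sector hydrolyses ATP on the cytosolic side and its V0 sector carries protons across the membrane. TFEB, TFE3 and MITF are related basic helix-loop-helix factors that bind E-box sequences of the CLEAR type, built on the core CACGTG, in the promoters of many lysosomal and V-ATPase genes. They are held in the cytoplasm when mTORC1 is active at the lysosome, and calcium released through the channel MCOLN1 is among the signals that free TFEB. Their activity is set largely by location and phosphorylation, which RNA levels do not show.

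Library totals ran from 31248794 to 47923693 counts in E0771 and from 38456590 to 52581746 in AT-3. In all, 43 members passed the filter on low counts in E0771 and 46 in AT-3. Ctsf, Atp6v1b1 and Atp6v1c2 were left out in E0771 only, and Atp6v0d2, Atp6v1e2, Atp6v1fnb and Atp6v1g3 in both lines. Under DMSO, 7 epithelial markers, in counts per 1000000 of the library total (CPM), summed to 201.9 to 207.1 CPM in E0771, nearly all of it keratin gene Krt8, against 583.3 to 624.6 CPM in AT-3, where Cdh1 and Epcam led. Epcam was at or near 0 in E0771, at 0.0746 CPM. The leukocyte genes Ptprc, Adgre1 and Tyrobp had no count under DMSO in either line, but others of the 12 leukocyte markers had reads: Cd14 averaged 1.42 CPM in E0771 and 39.8 in AT-3, and Lyz2 5.65 CPM in E0771 and 0.440 in AT-3. Among the AT-3 libraries, the one with BMS204352 and replicate number 3 stood apart from the others on the first principal component of all genes, at 65.9, against 17.2 and 22.1 for the other BMS204352 libraries. Calls within AT-3 that rest on that group are given with and without it, and values of all 3 libraries include it.

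Promoter sequence was searched for the E-box core because the 3 transcription factors among the members bind it. RefSeq promoter windows (GRCm38.p6, 300 bases that span each gene's start) were at hand for 41 of the 50 members. Those without one were Npc1, Ctsb, Ctsh, Atp6v0a2, Atp6v0d2, Atp6v1b2, Atp6v1c1, Atp6v1g1 and Atp6v1h. The core CACGTG, which reads the same on both strands, occurred in 13 of 41 members (31.7%), 9 of 24 lysosomal and 4 of 17 V-ATPase members, against 2187 of all 27025 promoters (8.09%). TCACGTG, searched on both strands and overlapping that core, occurred in 11 of 41 members (26.8%) against 4.29% of all promoters. A match describes the letters in this window and shows no binding. The windows of 8 members that recur in the results are shown, 100 bases each, upstream of the start and in the direction of transcription, with CACGTG in capitals and the bases counted from the start. They are 5 lysosomal genes with the core within 100 bases upstream of the start, Gaa with it farther upstream, and a gene of each V-ATPase sector. The start is that of the RefSeq window, and annotations differ. By GENCODE the outermost start of Ctsd and of Atp6v1a lies upstream of the whole window shown. That of Naglu lies upstream of its core, and that of Mcoln1 upstream of its core nearer the RefSeq start.
Naglu (chr11:101069994-101070093, plus strand, bases -100 to -1): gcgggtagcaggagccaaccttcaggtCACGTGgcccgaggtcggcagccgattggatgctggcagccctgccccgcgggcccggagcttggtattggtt
Mcoln1 (chr8:3500419-3500518, plus strand, bases -100 to -1): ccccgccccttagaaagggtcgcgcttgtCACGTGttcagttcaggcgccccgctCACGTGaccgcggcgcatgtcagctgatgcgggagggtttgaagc
Lamp1 (chr8:13159061-13159160, plus strand, bases -100 to -1): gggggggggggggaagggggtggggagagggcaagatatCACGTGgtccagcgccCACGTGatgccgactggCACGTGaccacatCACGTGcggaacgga
Glb1 (chr9:114400978-114401077, plus strand, bases -100 to -1): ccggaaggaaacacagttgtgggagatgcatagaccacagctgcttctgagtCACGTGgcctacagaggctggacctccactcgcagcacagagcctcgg
Ctsd (chr7:142387828-142387927, minus strand, bases -100 to -1): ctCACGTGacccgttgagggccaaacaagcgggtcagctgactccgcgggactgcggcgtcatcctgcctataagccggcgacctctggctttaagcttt
Gaa (chr11:119267803-119267902, plus strand, bases -160 to -61): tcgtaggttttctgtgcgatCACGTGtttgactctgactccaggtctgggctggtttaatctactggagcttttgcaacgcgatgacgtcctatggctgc
Atp6v0b (chr4:117887330-117887429, minus strand, bases -100 to -1): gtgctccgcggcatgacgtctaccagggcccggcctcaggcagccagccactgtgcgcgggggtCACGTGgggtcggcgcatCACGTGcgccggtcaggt
Atp6v1a (chr16:44139320-44139419, minus strand, bases -160 to -61): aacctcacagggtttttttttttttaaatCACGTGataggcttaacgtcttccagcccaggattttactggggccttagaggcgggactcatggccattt

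The Lamp1 window, from the gene of the main lysosomal membrane glycoprotein, holds 4 copies of the core. The windows of Mcoln1 and of Atp6v0b, whose protein is a proteolipid of V0, hold 2 each, and Naglu, Glb1 and Ctsd hold 1 each.

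Both lines expressed most members under DMSO, but at different levels. Per kilobase of exon, the highest in E0771 were the sphingolipid activator precursor Psap (347.4 ± 6.88 CPM per kb, SD, n = 3), the aspartic protease Ctsd (333.3 ± 6.46), Lamp1 (217.9 ± 5.42), the carboxypeptidase Ctsz (201.3 ± 3.50), the progranulin gene Grn (186.3 ± 7.02), the tetraspanin gene Cd63 (113 ± 1.05) and the cysteine protease Ctsb (97.4 ± 2.50). No 2 neighbours in that order overlapped. In AT-3 the order was Ctsd (742.5 ± 28.8 CPM per kb), Lamp1 (221.5 ± 11.8), Psap (179.5 ± 8.92), Grn (134.7 ± 13.5), Ctsz (126.8 ± 2.36), Cd63 (89.9 ± 3.60) and the V1 subunit Atp6v1g1 (89.2 ± 3.69). There Grn overlapped Ctsz, and Cd63 overlapped Atp6v1g1. At least 1 CPM per kb was reached by 39 members in E0771 and 41 in AT-3, and the highest of these stood 119 and 473 times above the lowest.

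**Figure D1:**
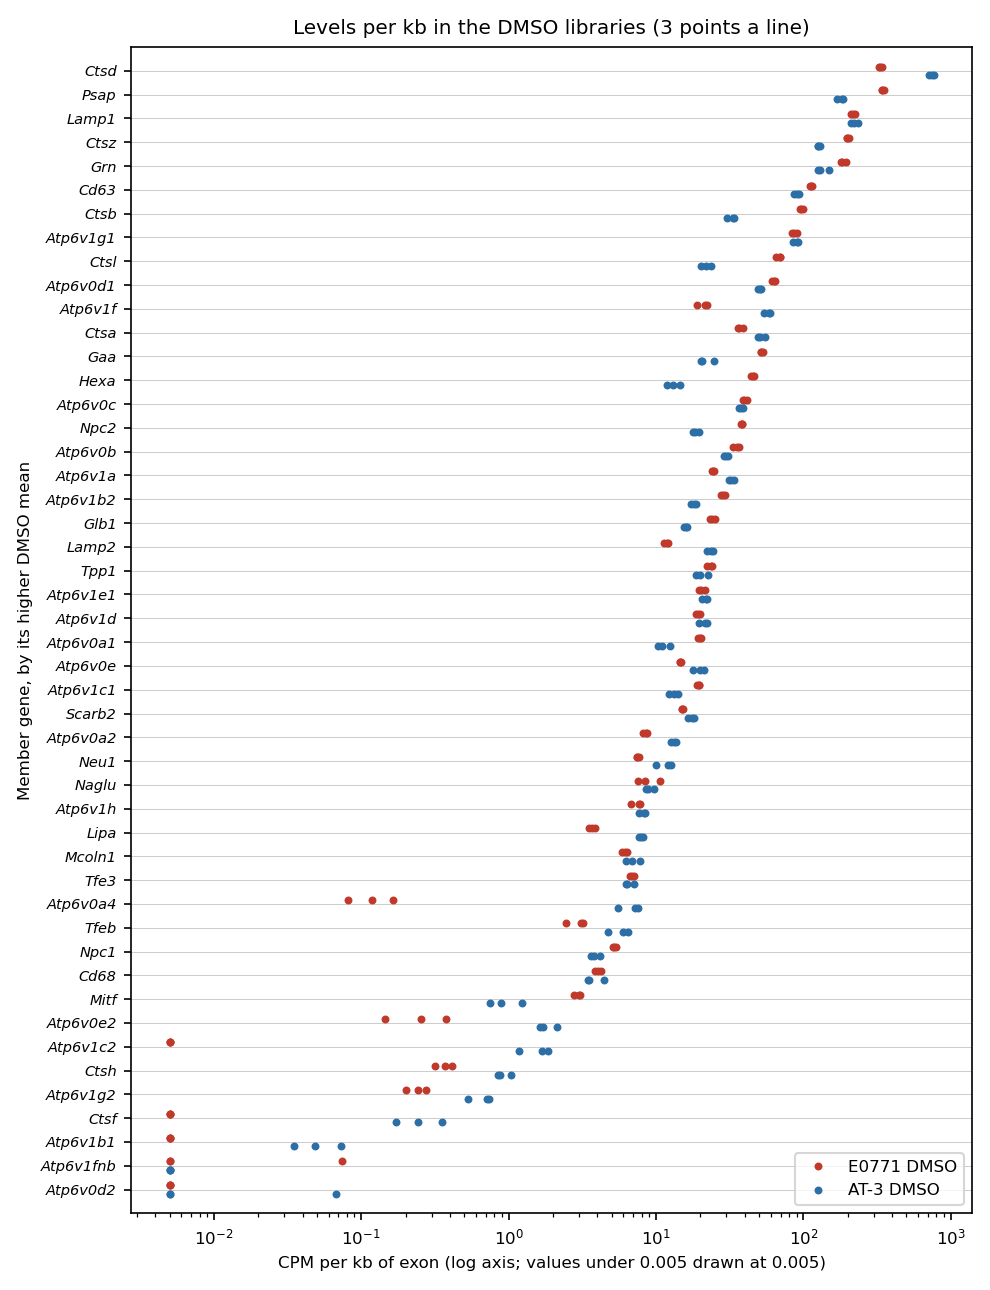
Level of each member under DMSO in CPM per kilobase of exon, on a log axis, with 3 libraries a line for E0771 and AT-3; values under 0.005 are drawn at 0.005, and members whose mean is under 0.005 in both lines are left out. Psap and Ctsd lead in E0771 and Ctsd leads in AT-3, and Atp6v0a4 lies far lower in E0771 than in AT-3.

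The lines themselves differed widely under DMSO. In a fit of all 36 libraries (edgeR's quasi-likelihood test, Benjamini-Hochberg adjustment over all genes), 18 members were higher and 20 lower in E0771 than in AT-3, of 46 tested, where 74.5% of all genes (34.1% higher and 40.4% lower) were called. The a4 subunit of V0, Atp6v0a4, known from acid-secreting kidney cells, measured 0.585, 0.814 and 0.404 CPM in E0771 and 35.6, 37.6 and 27.3 CPM in AT-3 (log2 difference -5.77 ± 0.26, adjusted p = 7.71e-18; ± is the standard error here and throughout for log2 differences). Hexa, an enzyme of ganglioside breakdown, measured 91.9, 90.9 and 87.9 CPM in E0771 and 26.2, 28.9 and 23.6 CPM in AT-3 (log2 1.78 ± 0.12, adjusted p = 4.68e-14). The cysteine protease gene Ctsl measured 451.98, 447.4 and 421.7 CPM in E0771 and 152.9, 141.98 and 130.96 CPM in AT-3 (log2 1.63 ± 0.083, adjusted p = 3.1e-18). None of these groups overlapped. Of the transcription factors, Mitf was higher in E0771 (log2 1.63 ± 0.14, adjusted p = 2.68e-12) and Tfeb lower (log2 -0.97 ± 0.13, adjusted p = 3.34e-08). Ctsd was lower in E0771 (log2 -1.16 ± 0.040, adjusted p = 1.92e-23). The members Atp6v1c2, Ctsf and Atp6v1b1, with no count in the E0771 DMSO libraries, had reads in AT-3. They are among the 20 lower and the 46 tested, and passed the filter of this fit only through AT-3. Their calls therefore add no support for a difference between the lines. Atp6v1c2 averaged 3.41 ± 0.748 CPM there (SD, n = 3), at least 131-fold above the floor of 3 counts over the E0771 group (0.0261 CPM). The same floor put Ctsf, at 1.29 ± 0.467 CPM in AT-3, at least 49.5-fold and Atp6v1b1, at 0.228 ± 0.0847 CPM, at least 8.73-fold higher there.

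NS11021 raised a broad set of lysosomal genes in E0771 and few V-ATPase genes. Against DMSO, 16 of the 26 lysosomal members tested rose and none fell, while of 17 V-ATPase subunits 3 rose and 3 fell. Together that is 22 of 43 members (51.2%), against 26.3% of all genes (12.8% higher and 13.5% lower). The median log2 change was 0.22 over lysosomal members, 0.050 over V-ATPase members and 0.002 over all genes. Most changes were modest: the 19 that rose lay between 1.09-fold and 2.94-fold. Of the 22 calls, 15 held under every setting tried. Those of Mitf, Mcoln1, Scarb2, Lamp2, Ctsh, Atp6v1b2 and Atp6v0e did not. In bulk RNA, fewer cells with a transcript and less of it per cell cannot be told apart.

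The macrosialin gene Cd68, a lysosome-associated glycoprotein best known from macrophages, measured 14.2, 15.5 and 15.1 CPM under NS11021 and 4.83, 5.32 and 5.08 CPM under DMSO (log2 fold change 1.55 ± 0.13, adjusted p = 6.99e-10). The 12 leukocyte markers summed to 6.93 to 8.24 CPM under NS11021 and 6.61 to 8.16 CPM under DMSO, and Ptprc, Adgre1 and Tyrobp were at 0 in both. The fibroblast markers summed to 264.2 to 280.8 CPM under NS11021 and 290.9 to 326.9 CPM under DMSO, lower with NS11021. Not all of them fell: Pdgfrb averaged 68.7 CPM under NS11021 and 64.6 under DMSO. The epithelial markers summed to 212.9 to 227.8 CPM under NS11021 and 201.9 to 207.1 CPM under DMSO, higher with NS11021. Nearly all of that sum was Krt8. The rest, at low levels, moved both ways: Cdh1 averaged 1.20 CPM under NS11021 and 1.41 under DMSO, and Cldn7 0.161 and 0.0495 CPM. The part of these shifts in the results was not tested. Naglu, which removes N-acetylglucosamine from heparan sulphate, measured 38.98, 40.9 and 40.3 CPM under NS11021 and 22.5, 28.2 and 19.95 CPM under DMSO (log2 0.77 ± 0.091, adjusted p = 3.8e-07). The cholesterol exporter gene Npc1 measured 75.1, 83.1 and 75.6 CPM under NS11021 and 57.9, 60.2 and 58.5 CPM under DMSO (log2 0.40 ± 0.073, adjusted p = 0.000139). Neither Cd68 nor Naglu nor Npc1 overlapped between the groups. The V1 subunit Atp6v1f measured 28.3, 29.04 and 28.04 CPM under NS11021 and 23.7, 22.9 and 20.2 CPM under DMSO (log2 0.35 ± 0.077, adjusted p = 0.000955), also without overlap.

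By role, 4 of 5 glycosidases rose (Naglu, Gaa, Hexa and Neu1), as did 3 of 4 genes of lipid handling and activation (Grn, Npc2 and Psap). Gaa, the acid alpha-glucosidase that degrades glycogen, measured 298.9, 313.8 and 297.9 CPM under NS11021 and 245.03, 245.4 and 253.7 CPM under DMSO (log2 0.29 ± 0.049, adjusted p = 5.08e-05). Psap measured 1137.2, 1179.2 and 1165.1 CPM under NS11021 and 940.9, 974.9 and 943.8 CPM under DMSO (log2 0.28 ± 0.033, adjusted p = 2.92e-07). Both genes were higher in every NS11021 library. Of 7 membrane proteins 5 rose (Cd68, Lamp2, Mcoln1, Npc1 and Scarb2), and of 7 proteases 3 rose (Ctsb, Ctsh and Ctsl). Ctsl measured 552.5, 575.6 and 558.2 CPM under NS11021 and 451.98, 447.4 and 421.7 CPM under DMSO (log2 0.35 ± 0.044, adjusted p = 6.02e-07). Of the transcription factors Mitf rose (log2 0.29 ± 0.091, adjusted p = 0.0178), while Tfeb (log2 -0.18 ± 0.12, adjusted p = 0.294) and Tfe3 (log2 -0.033 ± 0.059, adjusted p = 0.737) did not pass. Lamp1 (log2 0.035 ± 0.039, adjusted p = 0.569) and Ctsd (log2 0.077 ± 0.035, adjusted p = 0.0978) did not pass either, with 95% intervals of -0.042 to 0.11 and 0.010 to 0.14. Mcoln1, the lysosomal calcium channel, measured 58.2, 47.9 and 56.8 CPM under NS11021 and 46.6, 47.8 and 44.5 CPM under DMSO (log2 0.23 ± 0.068, adjusted p = 0.0122).

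The aminopeptidase gene Ctsh, at low levels in E0771, measured 2.87, 2.82 and 2.63 CPM under NS11021 and 1.66, 1.42 and 1.85 CPM under DMSO (log2 0.75 ± 0.23, adjusted p = 0.0163), with every NS11021 library above. Hexa measured 108.5, 113.8 and 111.7 CPM under NS11021 and 91.9, 90.9 and 87.9 CPM under DMSO (log2 0.30 ± 0.054, adjusted p = 9.25e-05). Neu1, which removes sialic acid, measured 35.1, 34.1 and 34.2 CPM under NS11021 and 28.6, 27.95 and 27.9 CPM under DMSO (log2 0.29 ± 0.076, adjusted p = 0.00441). These glycosidase groups did not overlap. Ctsb (log2 0.25 ± 0.034, adjusted p = 2.4e-06), Grn (log2 0.23 ± 0.041, adjusted p = 8.79e-05), the cholesterol-binding Npc2 (log2 0.21 ± 0.042, adjusted p = 0.000351), Scarb2, which carries glucocerebrosidase to the lysosome (log2 0.18 ± 0.054, adjusted p = 0.0112), and the membrane glycoprotein gene Lamp2 (log2 0.13 ± 0.047, adjusted p = 0.0464) rose by less. The lysosomal members tested that did not pass were Tfeb, Tfe3, Lamp1, Ctsd, Cd63, Ctsa, Ctsz, Tpp1, Glb1 and Lipa.

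Of 17 V-ATPase members tested, 3 fell with NS11021, all of V0, and 3 rose, all of V1. Over all genes 13.5% were called lower and 12.8% higher, and so few calls do not establish a split between the sectors. The a2 subunit gene Atp6v0a2 measured 46.3, 42.6 and 47.4 CPM under NS11021 and 58.7, 55.2 and 57.9 CPM under DMSO (log2 -0.34 ± 0.056, adjusted p = 3.99e-05). Atp6v0a1, the a1 subunit, fell by a log2 change of -0.18 ± 0.048, adjusted p = 0.00496, and Atp6v0e, a small membrane subunit, by -0.22 ± 0.060, adjusted p = 0.00752. Those that rose belong to V1: Atp6v1f, the catalytic A subunit Atp6v1a (log2 0.18 ± 0.050, adjusted p = 0.00659) and the B2 subunit Atp6v1b2 (log2 0.15 ± 0.048, adjusted p = 0.0157). With NS11021 in KCl, Atp6v1b2 was the only V-ATPase member that passed.

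**Figure D2:**
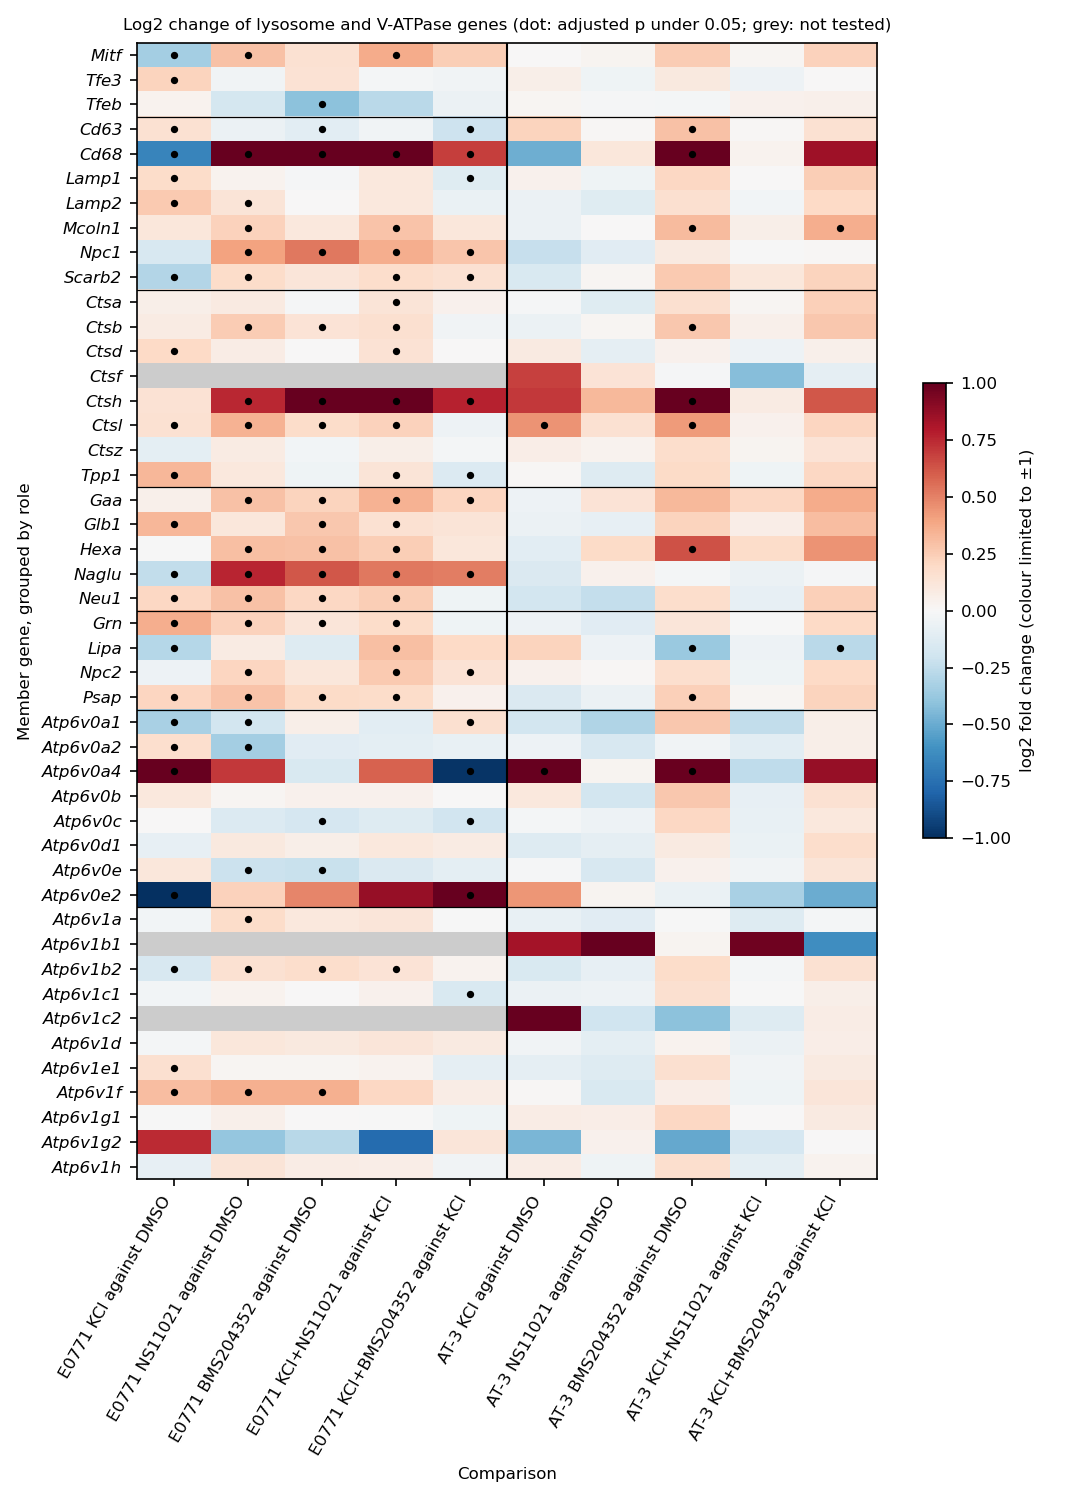
Log2 fold change of each tested member (rows, grouped by role) in each comparison (columns), E0771 left of AT-3; colour is limited to ±1, a dot marks an adjusted p under 0.05 and grey a gene not tested. The lysosomal rows are mostly positive for NS11021 in E0771, with Cd68, Naglu and Ctsh strongest, and carry no call for NS11021 in AT-3.

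**Figure D3:**
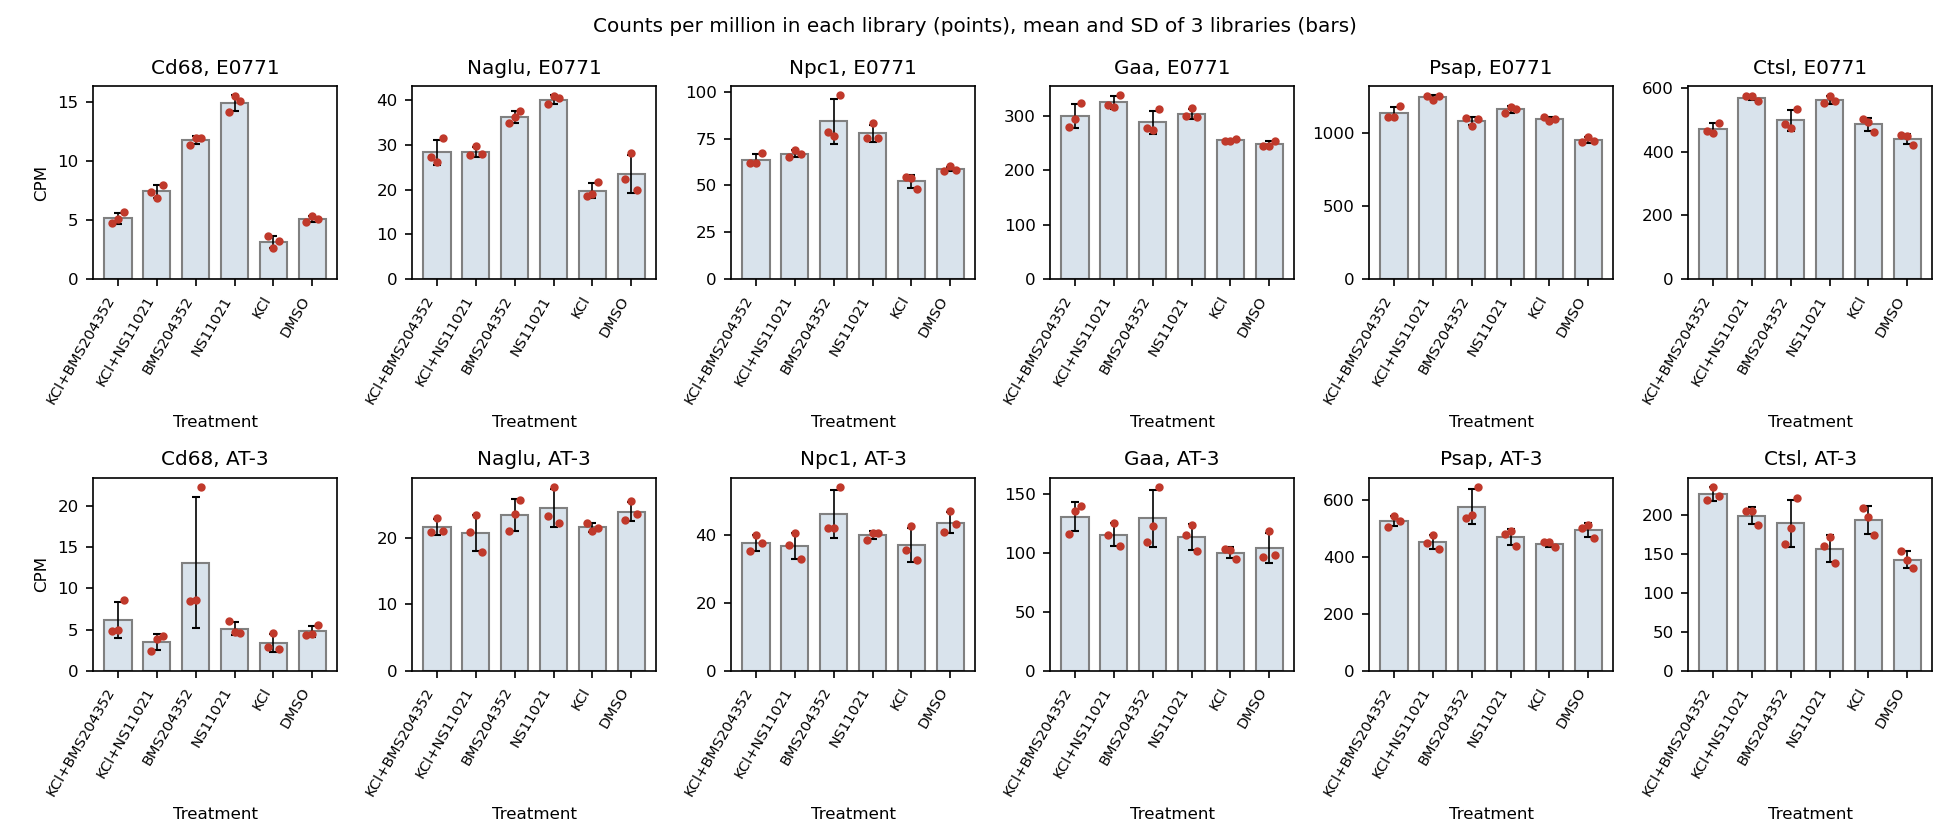
CPM of Cd68, Naglu, Npc1, Gaa, Psap and Ctsl in every library of E0771 and AT-3, by treatment, with points for libraries and bars for the mean and SD of 3. The 6 genes were picked from those called higher with NS11021 against DMSO in E0771. There all 3 NS11021 libraries lie above all 3 DMSO libraries for each, which adds no support to those calls.

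In 40 mM KCl, NS11021 again moved lysosomal members upward in E0771. With KCl and NS11021 against KCl alone, 20 of 26 lysosomal members rose and none fell, and of 17 V-ATPase members 1 rose, Atp6v1b2 (log2 0.14 ± 0.048, adjusted p = 0.0467). The total of 21 of 43 (48.8%) stood against 17.2% of all genes (9.59% higher and 7.66% lower). Median log2 changes were 0.18 over lysosomal members, 0.043 over V-ATPase members and 0.011 over all genes. This comparison shares no library with NS11021 against DMSO. The lists that rose in each had 16 members in common, which is 84.2% of the 19 that rose without KCl and 76.2% of the 21 that rose with it. Over all genes the lists that rose had 835 in common, which is 48.7% of the 1715 without KCl and 65.2% of the 1281 with it. All 5 glycosidases and all 4 genes of lipid handling and activation (Grn, Lipa, Npc2 and Psap) rose, as did 6 of 7 proteases, 4 of 7 membrane proteins and 1 of 3 transcription factors. Of the 21 calls, 14 held under every setting tried. Those of Neu1, Glb1, Lipa, Tpp1, Ctsa, Scarb2 and Atp6v1b2 did not.

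Cd68 measured 7.40, 6.91 and 7.99 CPM with KCl and NS11021 and 3.65, 2.60 and 3.26 CPM with KCl (log2 1.23 ± 0.14, adjusted p = 3.01e-07). Naglu measured 27.7, 29.7 and 27.8 CPM with KCl and NS11021 and 18.6, 18.9 and 21.6 CPM with KCl (log2 0.53 ± 0.094, adjusted p = 0.000208). Neither gene overlapped between the groups. Npc1 measured 65.1, 68.99 and 66.97 CPM with KCl and NS11021 and 54.5, 54.1 and 48.4 CPM with KCl (log2 0.36 ± 0.074, adjusted p = 0.00111). Mitf measured 18.4, 19.7 and 17.4 CPM with KCl and NS11021 and 15.1, 13.3 and 14.7 CPM with KCl (log2 0.37 ± 0.094, adjusted p = 0.00638), and its groups did not overlap. The lipase gene Lipa (log2 0.30 ± 0.089, adjusted p = 0.0182), the peptidase gene Tpp1 (log2 0.13 ± 0.046, adjusted p = 0.0477) and Ctsd (log2 0.15 ± 0.034, adjusted p = 0.00297) rose in this setting. Ctsh measured 4.86, 4.16 and 3.47 CPM with KCl and NS11021 and 1.43, 1.74 and 2.22 CPM with KCl (log2 1.21 ± 0.23, adjusted p = 0.000405). Gaa measured 320.5, 315.6 and 337.9 CPM with KCl and NS11021 and 253.2, 253.96 and 258.4 CPM with KCl (log2 0.35 ± 0.049, adjusted p = 8.86e-06), without overlap. Mcoln1 rose by a log2 change of 0.29 ± 0.068, adjusted p = 0.0034. Tfeb (log2 -0.27 ± 0.12, adjusted p = 0.122), Tfe3 (log2 -0.021 ± 0.058, adjusted p = 0.853) and Lamp1 (log2 0.11 ± 0.039, adjusted p = 0.0581) did not pass.

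Whether KCl altered the response to NS11021 was tested as an interaction. No member passed in E0771 (edgeR's quasi-likelihood test, smallest adjusted p = 0.257, where 0.217% of all genes (0.195% higher and 0.0225% lower) were called). At an unadjusted p under 0.05 there were 2, 1 higher and 1 lower, with no share of all genes taken at that threshold, and DESeq2 called 0.

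Per library, the median log2 deviation of lysosomal members from their DMSO means was 0.278, 0.263 and 0.251 in E0771 with KCl and NS11021, 0.216, 0.201 and 0.222 with NS11021, 0.0662, 0.0594 and 0.0883 with KCl and -0.0147, 0.0317 and -0.0135 with DMSO. With BMS204352 it was 0.107, 0.106 and 0.162, and with KCl and BMS204352 0.0861, 0.0747 and 0.174. Each NS11021 library, with or without KCl, lay above every other E0771 library.

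**Figure D4:**
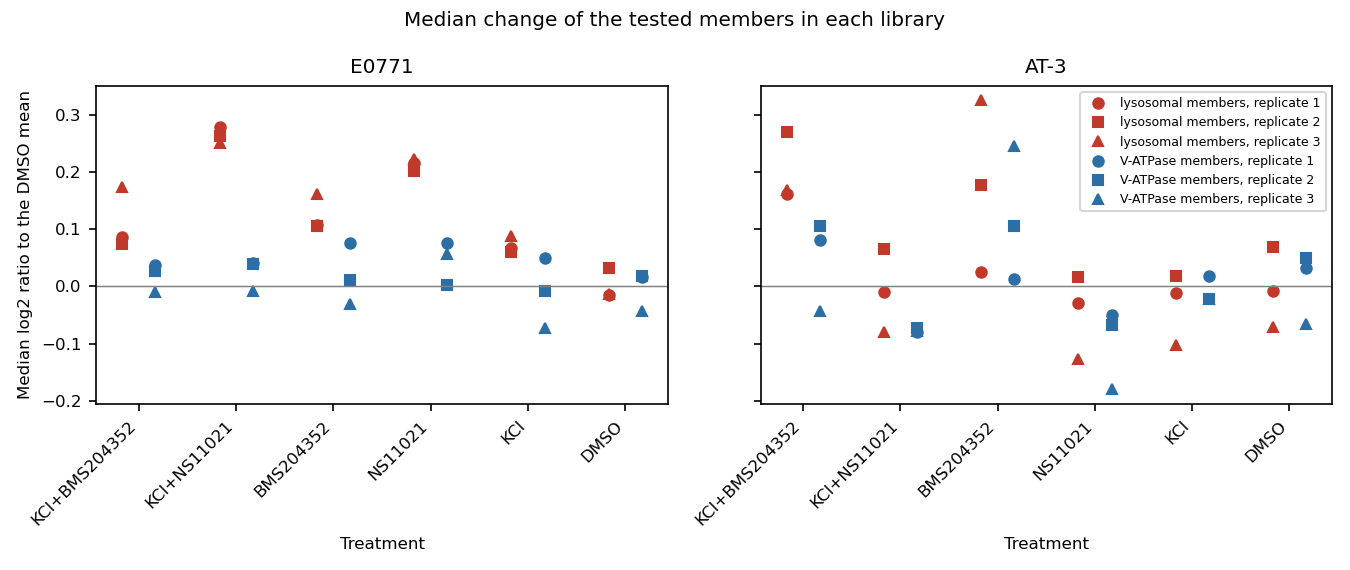
Median log2 deviation of lysosomal and of V-ATPase members from their DMSO means in each library, by treatment and line. In E0771 the NS11021 libraries, with and without KCl, lie between 0.201 and 0.278 for lysosomal members, above all others; in AT-3 library 3 of BMS204352 lies highest of its group, at 0.325.

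BMS204352 also raised lysosomal genes in E0771, and lowered a few members. Against DMSO 12 of 26 lysosomal members rose and 2 fell, and of 17 V-ATPase members 2 rose and 2 fell, against 22.7% of all genes (11.3% higher and 11.3% lower) called in either direction. Both compounds were set against the same DMSO libraries. BMS204352 library 3 stood apart on the third principal component of all E0771 genes, at 30.2, against 3.37 and -1.07 for the other BMS204352 libraries. All 5 glycosidases rose. Cd68 measured 11.4, 11.97 and 11.98 CPM under BMS204352 and 4.83, 5.32 and 5.08 CPM under DMSO (log2 1.22 ± 0.13, adjusted p = 1.11e-07), and Naglu 34.8, 36.1 and 37.6 CPM under BMS204352 and 22.5, 28.2 and 19.95 CPM under DMSO (log2 0.62 ± 0.092, adjusted p = 1.2e-05). Npc1 measured 78.4, 76.5 and 98.2 CPM under BMS204352 and 57.9, 60.2 and 58.5 CPM under DMSO (log2 0.53 ± 0.073, adjusted p = 8.32e-06). Those 3 genes had no overlap between the groups. Tfeb measured 13.6, 13.1 and 10.6 CPM under BMS204352 and 17.995, 17.7 and 13.9 CPM under DMSO (log2 -0.41 ± 0.12, adjusted p = 0.014). Cd63 was the other lysosomal member that fell (log2 -0.10 ± 0.036, adjusted p = 0.0375). Of the V-ATPase, Atp6v1f (log2 0.36 ± 0.077, adjusted p = 0.00121) and Atp6v1b2 (log2 0.17 ± 0.048, adjusted p = 0.0086) rose, and Atp6v0e (log2 -0.22 ± 0.060, adjusted p = 0.0075) and the proteolipid gene Atp6v0c (log2 -0.17 ± 0.053, adjusted p = 0.0221) fell. Tfe3 (log2 0.14 ± 0.058, adjusted p = 0.0724), Mitf (log2 0.15 ± 0.092, adjusted p = 0.251), Lamp1 (log2 -0.012 ± 0.039, adjusted p = 0.872), Ctsd (log2 0.001 ± 0.035, adjusted p = 0.985) and Mcoln1 (log2 0.10 ± 0.068, adjusted p = 0.295) did not pass. The calls of Neu1, Grn, Tfeb and Cd63 were lost without library 3, and also without some of the other libraries. Of the 18 calls, 12 held under every setting tried, and those of Atp6v0e and Atp6v0c were also not among them.

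In KCl, BMS204352 moved E0771 members in both directions. With KCl and BMS204352 against KCl, 7 lysosomal members rose and 3 fell, and 2 V-ATPase members rose and 3 fell, against 19.9% of all genes (9.85% higher and 10.1% lower). Cd68 measured 4.74, 5.11 and 5.66 CPM with KCl and BMS204352 and 3.65, 2.60 and 3.26 CPM with KCl (log2 0.69 ± 0.14, adjusted p = 0.000532), and Naglu 27.3, 26.1 and 31.5 CPM with KCl and BMS204352 and 18.6, 18.9 and 21.6 CPM with KCl (log2 0.51 ± 0.093, adjusted p = 0.000189). Npc1 (log2 0.28 ± 0.074, adjusted p = 0.00824), Gaa (log2 0.22 ± 0.049, adjusted p = 0.00186), Npc2 (log2 0.14 ± 0.042, adjusted p = 0.0161) and Scarb2 (log2 0.15 ± 0.055, adjusted p = 0.0447) rose as well. Tpp1 (log2 -0.14 ± 0.046, adjusted p = 0.0345), Cd63 (log2 -0.21 ± 0.036, adjusted p = 0.000111) and Lamp1 (log2 -0.12 ± 0.039, adjusted p = 0.0307) fell. A pair of V0 genes at low levels also passed. Atp6v0e2 measured 0.543, 0.642 and 0.624 CPM with KCl and BMS204352 and 0.265, 0.120 and 0.0472 CPM with KCl (log2 2.05 ± 0.64, adjusted p = 0.021), and Atp6v0a4 0.691, 1.17 and 1.002 CPM with KCl and BMS204352 and 1.48, 2.24 and 1.86 CPM with KCl (log2 -0.98 ± 0.33, adjusted p = 0.0324). Mitochondrial genes took 0.93% of counts in this group, the highest of the E0771 groups, and their part in these results was not tested. The count of 15 dropped to 9 without KCl library 1, 8 without KCl library 2 and 9 without KCl and BMS204352 library 3. Of the 15 calls, only 4 held under every setting tried, those of Cd63, Cd68, Gaa and Naglu. Among the 43 members, 1 passed the interaction of KCl with BMS204352, Ctsl (log2 -0.24 ± 0.062, adjusted p = 0.0438; 1.62% of all genes (0.569% higher and 1.06% lower) were called). Ctsl measured 463.6, 459.5 and 491.03 CPM with KCl and BMS204352, 487.5, 472.5 and 534.1 CPM with BMS204352, 501.8, 491.5 and 462.4 CPM with KCl and 451.98, 447.4 and 421.7 CPM with DMSO. The count of 1 went to 0 without DMSO library 1, 2 or 3, without KCl library 1 or 2, or without KCl and BMS204352 library 1 or 2, and to 3 without BMS204352 library 2 or without KCl and BMS204352 library 3.

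The compounds were compared directly at the same dose and time, in 4 pairs of groups over both lines, each with p-values adjusted over all genes tested. In E0771 without KCl, 3 of 43 members differed, against 1.76% of all genes (1.13% higher and 0.629% lower). Ctsl was higher with NS11021 (552.5, 575.6 and 558.2 CPM) than with BMS204352 (487.5, 472.5 and 534.1 CPM; log2 0.17 ± 0.043, adjusted p = 0.039). Atp6v0a1 was lower with NS11021 (110.6, 119.9 and 111.7 CPM) than with BMS204352 (131.1, 130.96 and 141.4 CPM; log2 -0.24 ± 0.048, adjusted p = 0.00455), and so was Atp6v0a2 (46.3, 42.6 and 47.4 CPM with NS11021, 53.3, 54.8 and 50.5 CPM with BMS204352; log2 -0.22 ± 0.056, adjusted p = 0.0298). The count was 1 without NS11021 library 1, 2 or 3 or without BMS204352 library 1 or 2. For Cd68, Naglu and Npc1 the difference did not pass: 95% intervals of the log2 difference were 0.10 to 0.57 for Cd68, -0.035 to 0.32 for Naglu and -0.26 to 0.019 for Npc1. The interval of Cd68 leaves out 0 before adjustment (adjusted p = 0.188), and none of the 3 shows that the compounds act alike.

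In KCl more members of E0771 differed between the compounds. With NS11021, 11 lysosomal members were higher than with BMS204352 and none lower, and of the V-ATPase 2 were higher and 1 lower, against 4.95% of all genes (3.92% higher and 1.03% lower). Cd68 measured 7.40, 6.91 and 7.99 CPM with KCl and NS11021 and 4.74, 5.11 and 5.66 CPM with KCl and BMS204352 (log2 0.54 ± 0.13, adjusted p = 0.0104). The sialidase gene Neu1 measured 41.7, 37.9 and 35.1 CPM with KCl and NS11021 and 31.2, 30.8 and 32.6 CPM with KCl and BMS204352 (log2 0.29 ± 0.075, adjusted p = 0.0174). Ctsl measured 573.7, 572.9 and 558.96 CPM with KCl and NS11021 and 463.6, 459.5 and 491.03 CPM with KCl and BMS204352 (log2 0.28 ± 0.043, adjusted p = 8.1e-05). Tpp1 (log2 0.27 ± 0.046, adjusted p = 0.000314), Lamp1 (log2 0.22 ± 0.039, adjusted p = 0.000355), Grn (log2 0.23 ± 0.041, adjusted p = 0.000531), Ctsb (log2 0.20 ± 0.034, adjusted p = 0.000307) and Ctsd (log2 0.14 ± 0.034, adjusted p = 0.0103) were also higher with NS11021. Naglu did not pass (log2 interval -0.16 to 0.20). Atp6v0a1 was lower with NS11021 (log2 -0.27 ± 0.048, adjusted p = 0.000533). The count of 14 was 9 without KCl and BMS204352 library 1. Of the 14 calls, 8 held under every setting tried, and those of Cd68, Neu1 and Ctsd were not among them.

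KCl alone changed lysosomal genes of E0771 in both directions. Against DMSO 11 lysosomal members rose and 5 fell, and 4 V-ATPase members rose and 3 fell, which is 23 of 43 (53.5%) against 36.4% of all genes (17.8% higher and 18.6% lower). Grn measured 854.6, 819.6 and 807.5 CPM with KCl and 638.4, 674.9 and 628.6 CPM with DMSO (log2 0.36 ± 0.041, adjusted p = 2.49e-08). Tpp1 measured 150.4, 147.9 and 151.4 CPM with KCl and 114.5, 121.9 and 122.99 CPM with DMSO (log2 0.33 ± 0.046, adjusted p = 8e-07). In both, every KCl library lay above every DMSO library. Cd68 measured 3.65, 2.60 and 3.26 CPM with KCl and 4.83, 5.32 and 5.08 CPM with DMSO (log2 -0.66 ± 0.14, adjusted p = 0.000302). The sum of the leukocyte markers was lower as well, at 4.08 to 4.97 CPM with KCl and 6.61 to 8.16 CPM with DMSO. Most of that fall was Lyz2, at 2.26 CPM with KCl and 5.65 with DMSO. Cd14 averaged 1.35 CPM with KCl and 1.42 with DMSO. Some others of the list, at low counts, were higher with KCl, such as Csf1r, at 0.288 CPM with KCl and 0.0384 with DMSO. The epithelial markers summed to 157.2 to 166.1 CPM with KCl and 201.9 to 207.1 CPM with DMSO, and the part of either list was not tested. Mitf measured 15.1, 13.3 and 14.7 CPM with KCl and 18.6, 18.9 and 17.3 CPM with DMSO (log2 -0.34 ± 0.093, adjusted p = 0.00436), with every KCl library below. Tfe3 (log2 0.22 ± 0.058, adjusted p = 0.00312), Lamp1 (log2 0.18 ± 0.039, adjusted p = 0.000434), Ctsd (log2 0.20 ± 0.035, adjusted p = 2.39e-05), Lamp2 (log2 0.26 ± 0.047, adjusted p = 4.73e-05) and the beta-galactosidase gene Glb1 (log2 0.33 ± 0.053, adjusted p = 9.03e-06) rose. Scarb2 (log2 -0.30 ± 0.055, adjusted p = 6.31e-05), Lipa (log2 -0.28 ± 0.089, adjusted p = 0.0119) and Naglu (log2 -0.24 ± 0.094, adjusted p = 0.0405) fell. Of the 23 calls, 15 held under every setting tried, and those of Lipa and Naglu were not among them. Tfeb (log2 0.039 ± 0.12, adjusted p = 0.835) and Mcoln1 (log2 0.11 ± 0.068, adjusted p = 0.214) did not pass.

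Fewer members passed in AT-3, where libraries also varied more. The common biological coefficient of variation was 0.116 in AT-3 and 0.0707 in E0771, so counts of calls are not directly comparable between the lines. With NS11021 no member passed, of 46 tested, either against DMSO or, in KCl, against KCl alone (edgeR), where 0.0745% of all genes (0.0677% higher and 0.00677% lower) were called in the first comparison and 0.0203% of all genes (0.0203% higher and 0% lower) in the second. DESeq2 also called 0 in both. At an unadjusted p under 0.05 there were 5 without KCl, 1 higher and 4 lower, and 1 with it, lower. The share of all genes at that threshold was not taken. Naglu measured 23.4, 27.8 and 22.4 CPM under NS11021 and 22.8, 25.6 and 23.6 CPM under DMSO, and Cd68 6.03, 4.77 and 4.57 CPM under NS11021 and 4.34, 4.43 and 5.55 CPM under DMSO. The 95% intervals of their log2 changes were -0.15 to 0.24 and -0.62 to 0.85. Neither interaction of KCl with a compound gave a call among the members of AT-3 by edgeR or DESeq2, or an unadjusted p under 0.05, and 0% of all genes were called.

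KCl raised 2 members of AT-3, against 4.83% of all genes (3.08% higher and 1.75% lower). Atp6v0a4 measured 78.5, 74.7 and 53.6 CPM with KCl and 35.6, 37.6 and 27.3 CPM with DMSO (log2 1.05 ± 0.20, adjusted p = 0.00794), without overlap. The leukocyte markers summed to 63.4 to 68.8 CPM with KCl and 38.02 to 44.3 CPM with DMSO, with Cd14 at 65.5 CPM with KCl and 39.8 with DMSO, and their part was not tested. Ctsl measured 208.5, 197.03 and 173.999 CPM with KCl and 152.9, 141.98 and 130.96 CPM with DMSO (log2 0.45 ± 0.10, adjusted p = 0.0133), and its call was lost without KCl library 1 or DMSO library 3. Of the transcription factors Tfeb (log2 0.016 ± 0.12, adjusted p = 0.969), Tfe3 (log2 0.055 ± 0.065, adjusted p = 0.745) and Mitf (log2 0.006 ± 0.18, adjusted p = 0.991) did not pass, nor did Lamp1 (log2 0.045 ± 0.077, adjusted p = 0.84), Ctsd (log2 0.089 ± 0.051, adjusted p = 0.397) or Mcoln1 (log2 -0.061 ± 0.074, adjusted p = 0.752).

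With BMS204352, 8 of 27 lysosomal members of AT-3 rose and 1 fell, and 1 of 19 V-ATPase members rose, against 5.27% of all genes (3.28% higher and 2% lower). An unadjusted p under 0.05 (edgeR) was reached by 26 members, 25 higher and 1 lower, with library 3 included. The share of all genes at that threshold was not taken, so the count does not set the members apart. Cd68 measured 8.43, 8.63 and 22.4 CPM under BMS204352 and 4.34, 4.43 and 5.55 CPM under DMSO (log2 1.48 ± 0.37, adjusted p = 0.0359). The third BMS204352 library was far above the others. The 12 leukocyte markers summed to 47.5 to 58.7 CPM under BMS204352 and 38.02 to 44.3 CPM under DMSO, nearly all of it Cd14, with Ptprc, Adgre1 and Tyrobp at 0 in both. The fibroblast markers summed to 44.1 to 65.5 CPM under BMS204352 and 69.3 to 77.7 CPM under DMSO, and the epithelial markers to 658.01 to 690.4 CPM under BMS204352 and 583.3 to 624.6 CPM under DMSO. The part of these lists in the results was not tested. Ctsh measured 7.08, 6.97 and 14.4 CPM under BMS204352 and 3.91, 3.83 and 4.64 CPM under DMSO (log2 1.21 ± 0.23, adjusted p = 0.00645). Hexa measured 32.7, 37.01 and 51.4 CPM under BMS204352 and 26.2, 28.9 and 23.6 CPM under DMSO (log2 0.64 ± 0.16, adjusted p = 0.0283). Mcoln1 rose (log2 0.31 ± 0.074, adjusted p = 0.0205), and so did Cd63 (log2 0.30 ± 0.071, adjusted p = 0.022), Ctsb (log2 0.27 ± 0.079, adjusted p = 0.048), Ctsl (log2 0.42 ± 0.10, adjusted p = 0.0233) and Psap (log2 0.24 ± 0.069, adjusted p = 0.0498). Lipa measured 41.1, 44.7 and 37.3 CPM under BMS204352 and 53.9, 55.2 and 51.8 CPM under DMSO (log2 -0.37 ± 0.065, adjusted p = 0.00276). Tfeb (log2 -0.017 ± 0.12, adjusted p = 0.959), Tfe3 (log2 0.094 ± 0.065, adjusted p = 0.434), Mitf (log2 0.26 ± 0.18, adjusted p = 0.45), Lamp1 (log2 0.20 ± 0.077, adjusted p = 0.12) and Ctsd (log2 0.046 ± 0.051, adjusted p = 0.658) did not pass. The 10 calls became 2 without BMS204352 library 3 or DMSO library 3, 5 without DMSO library 1 or 2, and 20 without BMS204352 library 1. Without library 3, Ctsh (log2 0.77 ± 0.18, adjusted p = 0.023) and Lipa (log2 -0.32 ± 0.069, adjusted p = 0.0166) passed, and Cd68 (log2 0.84 ± 0.26, adjusted p = 0.141), Hexa (log2 0.41 ± 0.13, adjusted p = 0.12), Atp6v0a4 (log2 1.04 ± 0.23, adjusted p = 0.0539), Mcoln1 (log2 0.24 ± 0.075, adjusted p = 0.114), Cd63 (log2 0.19 ± 0.058, adjusted p = 0.121), Ctsb (log2 0.14 ± 0.061, adjusted p = 0.32), Ctsl (log2 0.28 ± 0.083, adjusted p = 0.0997) and Psap (log2 0.14 ± 0.058, adjusted p = 0.312) did not.

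The 3 BMS204352 libraries of AT-3 had median log2 deviations from the DMSO means of 0.0256, 0.178 and 0.325 over lysosomal members and 0.0132, 0.106 and 0.246 over V-ATPase members, highest in library 3. In KCl, BMS204352 raised Mcoln1 (64.1, 66.3 and 64.8 CPM with KCl and BMS204352, 49.7, 52.8 and 48.1 CPM with KCl; log2 0.36 ± 0.074, adjusted p = 0.0222) and lowered Lipa (53.6, 54.8 and 47.8 CPM with KCl and BMS204352, 62.9, 63.6 and 59.9996 CPM with KCl; log2 -0.27 ± 0.065, adjusted p = 0.0447) in AT-3, against 1.24% of all genes (0.731% higher and 0.508% lower). An unadjusted p under 0.05 was reached by 24 members, 22 higher and 2 lower. Here too the share of all genes at that threshold was not taken, and the count does not set the members apart. The count of 2 fell to 1 without KCl library 2 and to 0 without KCl library 1 or 3 or without KCl and BMS204352 library 2 or 3. Library 3 lay at 30.1 on the first principal component of all AT-3 genes, against -3.16 and 1.31 for the other KCl and BMS204352 libraries. Without it Mcoln1 had a log2 change of 0.35 ± 0.084, adjusted p = 0.135, and Lipa of -0.23 ± 0.071, adjusted p = 0.268. Mitochondrial genes took 0.687 to 0.792% of counts with KCl and BMS204352 and 0.491 to 0.580% with KCl, and their part was not tested.

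Set against each other in AT-3, NS11021 gave 1 higher and 13 lower members than BMS204352, against 2.94% of all genes (1.55% higher and 1.39% lower). Atp6v0a4 measured 35.6, 41.02 and 24.8 CPM with NS11021 and 64.6, 72.3 and 60.9 CPM with BMS204352 (log2 -0.96 ± 0.20, adjusted p = 0.0243), and Ctsh 6.17, 4.001 and 5.20 CPM with NS11021 and 7.08, 6.97 and 14.4 CPM with BMS204352 (log2 -0.89 ± 0.23, adjusted p = 0.0431). Atp6v0a1 (log2 -0.57 ± 0.10, adjusted p = 0.00513), the proteolipid gene Atp6v0b (log2 -0.45 ± 0.088, adjusted p = 0.00854) and Mcoln1 (log2 -0.31 ± 0.074, adjusted p = 0.0271) were also lower with NS11021, and Lipa was higher (log2 0.33 ± 0.066, adjusted p = 0.00995). The count of 14 was 2 without BMS204352 library 3, 27 without BMS204352 library 1, and 4, 8 and 1 without NS11021 libraries 1, 2 and 3. Without BMS204352 library 3, Atp6v0a1 (log2 -0.42 ± 0.084, adjusted p = 0.0111) and Atp6v0b (log2 -0.32 ± 0.074, adjusted p = 0.0341) passed, and Atp6v0a4 (log2 -1.01 ± 0.23, adjusted p = 0.0822), Ctsh (log2 -0.45 ± 0.17, adjusted p = 0.3), Mcoln1 (log2 -0.24 ± 0.075, adjusted p = 0.135) and Lipa (log2 0.27 ± 0.069, adjusted p = 0.0593) did not. In KCl 1 member differed, against 0.454% of all genes (0.257% higher and 0.196% lower): Atp6v0a4 measured 60.2, 66.6 and 46.2 CPM with KCl and NS11021 and 110.2, 146.5 and 125.2 CPM with KCl and BMS204352 (log2 -1.13 ± 0.20, adjusted p = 0.0279). That call was lost without any 1 of the 3 KCl and NS11021 libraries or without KCl and BMS204352 library 2 or 3 (log2 -1.13 ± 0.23, adjusted p = 0.15 without the last).

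The a subunit of V0 has several isoforms, which place the pump in different membranes. Shares were taken per kilobase among the listed paralogs Atp6v0a1, Atp6v0a2 and Atp6v0a4. The a3 gene Tcirg1 has another symbol, is no member and is not in these shares. In AT-3, Atp6v0a4 made up 51.8% ± 2.19 with KCl and BMS204352, 36.4% ± 3.97 with KCl and NS11021, 33.6% ± 3.02 with BMS204352, 24.5% ± 4.25 with NS11021, 37.8% ± 4.72 with KCl and 21.5% ± 2.62 with DMSO (SD, n = 3 each). In BMS204352 library 3 alone it was 30.4%, the lowest of the 3 BMS204352 libraries. Atp6v0a2 led under DMSO, at 42.3% ± 3.24, and was 27.1% ± 1.46 with KCl and BMS204352. In E0771, Atp6v0a1 led in every group, at 65.5% ± 1.14 with KCl and BMS204352, 60.7% ± 1.02 with KCl and NS11021, 72.0% ± 1.68 with BMS204352, 71.4% ± 1.86 with NS11021, 61.4% ± 0.638 with KCl and 69.5% ± 0.895 with DMSO. There Atp6v0a4 stayed at 2.34% ± 0.163 or below in group means. KCl lowered Atp6v0a1 in E0771 (100.5, 103.2 and 104.3 CPM with KCl, 130.8, 131.5 and 125.7 CPM with DMSO; log2 -0.32 ± 0.048, adjusted p = 2.73e-06) and raised Atp6v0a2 (log2 0.17 ± 0.055, adjusted p = 0.0181), a call lost without DMSO library 2 or KCl library 2 or 3. Atp6v0a4 rose with KCl there too, at 1.48, 2.24 and 1.86 CPM with KCl and 0.585, 0.814 and 0.404 CPM with DMSO (log2 1.63 ± 0.34, adjusted p = 0.000303), and this call held under every setting tried. The C2 subunit gene Atp6v1c2 held 19.8% ± 1.40 of the Atp6v1c pair in AT-3 with KCl and 10.5% ± 1.70 with DMSO. Of the remaining pairs, Atp6v0d1, Atp6v1b2, Atp6v1e1 and Atp6v1g1 held at least 99% in both lines under DMSO.

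**Figure D5:**
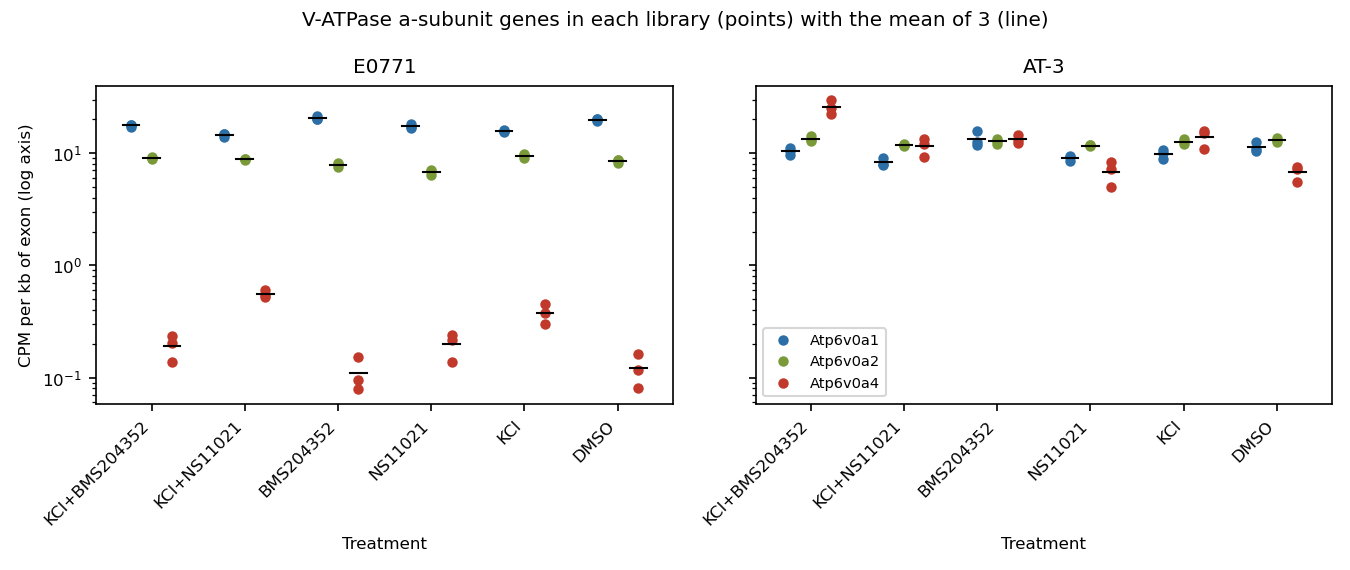
Level of Atp6v0a1, Atp6v0a2 and Atp6v0a4 in CPM per kilobase of exon, on a log axis, in each library (points) by treatment and line, with the mean of 3 (line). Atp6v0a4 is the highest of the 3 in AT-3 with KCl and BMS204352 and the lowest with DMSO, and Atp6v0a1 leads in every E0771 group.

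Whether a treatment acted differently in the lines was tested directly, as E0771 effect minus AT-3 effect. The NS11021 effect was more positive in E0771 for 8 of 46 members and for none more negative, against 3.99% of all genes (1.49% higher and 2.5% lower). They were Cd68 (log2 1.44 ± 0.39, adjusted p = 0.0303), Naglu (log2 0.71 ± 0.15, adjusted p = 0.00381), Neu1 (log2 0.52 ± 0.14, adjusted p = 0.0242), Npc1 (log2 0.51 ± 0.14, adjusted p = 0.0288), Atp6v1f (log2 0.49 ± 0.12, adjusted p = 0.0116), Grn (log2 0.34 ± 0.097, adjusted p = 0.0373), Psap (log2 0.33 ± 0.076, adjusted p = 0.00933) and Atp6v1a (log2 0.29 ± 0.081, adjusted p = 0.0332). The count was 3 without E0771 NS11021 library 2, 4 without E0771 DMSO library 1, AT-3 DMSO library 2 or AT-3 NS11021 library 3, and 5 without E0771 DMSO library 3. Naglu, Psap and Atp6v1f passed under every setting tried. The KCl effect was more positive in E0771 for Grn (log2 0.41 ± 0.097, adjusted p = 0.00556), Glb1 (log2 0.38 ± 0.11, adjusted p = 0.0273), Psap (log2 0.35 ± 0.076, adjusted p = 0.00263), Lamp2 (log2 0.31 ± 0.084, adjusted p = 0.0147) and Tpp1 (log2 0.31 ± 0.090, adjusted p = 0.0241), and more negative for Lipa (log2 -0.51 ± 0.11, adjusted p = 0.0017) and Atp6v0e2 (log2 -2.56 ± 0.54, adjusted p = 0.00166), against 9.13% of all genes (4.11% higher and 5.02% lower). The BMS204352 effect was more positive in E0771 for Naglu (log2 0.64 ± 0.15, adjusted p = 0.00636) and more negative for Cd63 (log2 -0.41 ± 0.078, adjusted p = 0.00146) and Atp6v0c (log2 -0.38 ± 0.080, adjusted p = 0.00323), against 5.01% of all genes (1.89% higher and 3.12% lower). Its count of 3, of 46 members, was 7 without AT-3 BMS204352 library 1 and 5 without library 3. None of the 3 calls for BMS204352 held under every setting tried, and their values without library 3 are not given here. Of the calls for the KCl effect, those of Glb1 and Tpp1 did not hold under every setting tried.

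Genes of the same pathway outside the members were taken in 5 lists. With NS11021 against DMSO in E0771, 11 higher and 3 lower of 35 other lysosomal hydrolases and activators passed, 4 higher and 6 lower of 30 other membrane proteins and transporters, 2 higher and 2 lower of 13 V-ATPase accessory and assembly genes, 6 higher and 7 lower of 37 autophagy and mTORC1 genes, and 2 higher and 3 lower of 19 genes of enzyme sorting, beside the 26.3% of all genes. Among hydrolases, Idua, which cuts iduronic acid from glycosaminoglycans (log2 0.70 ± 0.10, adjusted p = 5.47e-06), rose, and the phospholipase gene Pla2g15 fell (log2 -0.50 ± 0.083, adjusted p = 4.49e-05). The amino acid transporter gene Slc36a1 fell (log2 -0.39 ± 0.065, adjusted p = 4.64e-05). Of the accessory genes, Tcirg1, the a3 subunit, fell (log2 -0.61 ± 0.077, adjusted p = 2.03e-06), while Tldc1, an mTOR-associated gene (log2 0.63 ± 0.077, adjusted p = 4.77e-07), and Ncoa7, whose protein binds the V-ATPase (log2 0.46 ± 0.084, adjusted p = 0.000138), rose. Gpnmb, a glycoprotein of lysosomes and melanosomes, rose (log2 0.67 ± 0.071, adjusted p = 1.77e-06).

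In KCl, with NS11021 against KCl alone in E0771, the same lists gave 12 higher and 1 lower of 35 hydrolases, 3 higher and 1 lower of 30 membrane proteins, 1 higher and 1 lower of 13 accessory genes, 5 higher and 2 lower of 37 autophagy and mTORC1 genes and 2 higher and 0 lower of 19 sorting genes, beside 17.2% of all genes. Idua rose there too (log2 0.56 ± 0.10, adjusted p = 0.000234), and Tcirg1 fell (log2 -0.43 ± 0.075, adjusted p = 0.000266). With KCl against DMSO they gave 5 higher and 4 lower of 35, 7 higher and 5 lower of 30, 3 higher and 3 lower of 13, 14 higher and 5 lower of 37 and 3 higher and 7 lower of 19, beside 36.4% of all genes. The galactosylceramidase gene Galc (log2 0.80 ± 0.071, adjusted p = 2.09e-10), the lipid transporter gene Abca2 (log2 0.81 ± 0.070, adjusted p = 1.04e-08), the autophagy regulator gene Uvrag (log2 1.21 ± 0.055, adjusted p = 6.2e-17) and Igf2r, a mannose 6-phosphate receptor that sorts lysosomal enzymes (log2 0.98 ± 0.083, adjusted p = 8.48e-11), rose. Tmem175, a lysosomal cation channel, fell (log2 -0.60 ± 0.11, adjusted p = 3.41e-05).

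BMS204352 against DMSO in E0771 gave 7 higher and 3 lower of 35 hydrolases, 1 higher and 9 lower of 30 membrane proteins, 3 higher and 2 lower of 13 accessory genes, 6 higher and 8 lower of 37 autophagy and mTORC1 genes and 1 higher and 3 lower of 19 sorting genes, beside 22.7% of all genes. In KCl against KCl it gave 6 higher and 2 lower of 35, 1 higher and 4 lower of 30, 2 higher and 0 lower of 13, 3 higher and 7 lower of 37 and 3 higher and 2 lower of 19 in that order, beside 19.9%. The serine carboxypeptidase gene Scpep1 rose with BMS204352 (log2 0.51 ± 0.084, adjusted p = 0.000289), and Tcirg1 fell (log2 -0.26 ± 0.076, adjusted p = 0.0138). In AT-3, BMS204352 against DMSO gave 2 higher and 0 lower of 38 hydrolases, 1 higher and 0 lower of 30 membrane proteins, 1 higher and 1 lower of 13 accessory genes, 0 higher and 0 lower of 39 autophagy and mTORC1 genes and 0 higher and 0 lower of 19 sorting genes, beside 5.27% of all genes. The 5 that passed were the glycosidase genes Gla (log2 0.58 ± 0.11, adjusted p = 0.00432) and Gusb (log2 0.25 ± 0.067, adjusted p = 0.0353), Slc36a1 (log2 0.30 ± 0.084, adjusted p = 0.0408) and the pump's accessory gene Atp6ap1 (log2 0.27 ± 0.077, adjusted p = 0.048), which rose, and Oxr1, which fell (log2 -0.33 ± 0.074, adjusted p = 0.0156). Without BMS204352 library 3, Gla still passed (log2 0.46 ± 0.10, adjusted p = 0.0226), and Gusb (log2 0.18 ± 0.064, adjusted p = 0.216), Slc36a1 (log2 0.25 ± 0.087, adjusted p = 0.194), Atp6ap1 (log2 0.14 ± 0.060, adjusted p = 0.316) and Oxr1 (log2 -0.28 ± 0.076, adjusted p = 0.0611) did not. KCl against DMSO in AT-3 gave 1 higher and 5 lower of 38 hydrolases, 0 higher and 2 lower of 30 membrane proteins, 1 higher and 0 lower of 13 accessory genes, 1 higher and 2 lower of 39 autophagy and mTORC1 genes and 0 higher and 1 lower of 19 sorting genes, beside 4.83% of all genes. Arsb, a glycosaminoglycan sulphatase gene, fell with KCl there (log2 -0.31 ± 0.059, adjusted p = 0.00341), as did Tmem175 (log2 -0.64 ± 0.12, adjusted p = 0.00391).

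The E-box core was set beside the calls as a description. Of the lysosomal members with a promoter window, 7 of 17 that rose with NS11021 in KCl in E0771 held CACGTG, and 1 of 6 that did not. Against DMSO the counts were 4 of 13 that rose and 4 of 10 that did not. Ctsd, Glb1, Lamp1 and Ctsa hold the core and did not pass with NS11021 against DMSO, while the windows of Cd68 and Psap hold none.

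Some members share exons with neighbours, and whether counting used strand is not given in the sources used here. By annotated exon length, 26.8% of Ctsl overlaps Gm47123, 17.4% of Ctsa overlaps Neurl2 or Pltp, 12.8% of Ctsb overlaps Fdft1, 12.8% of Hexa overlaps Tmem202, 11.8% of Atp6v0b overlaps Gm12841 and 9.86% of Atp6v0a2 overlaps 4930404A12Rik. Reads of these pairs may not be told apart in the overlap. Atp6v0c has annotated pseudogenes of like sequence, so its counts are uncertain too.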

How the data were processed

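RNA-seq libraries of the E0771 and AT-3 lines were given as whole-number read counts per gene, deposited by the authors in a table of 36 columns, with no normalization applied. Reads had been aligned with STAR and counted with featureCounts on GRCm38, per the submitters' processing notes; no version and no strand setting is given in the sources used here. Of the counts from 1 to 10, 84.5% were even, as when both mates of a pair are counted apart, so a fit on halved counts was among the alternatives. The table had 32287 gene IDs, and the 2 of them that look human, holding 6 counts together, were dropped. A further 50 IDs without a symbol held 0.0009% of counts.

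Genes were tested with edgeR 4.0.16 (R 4.3.3; filterByExpr with a minimum count of 10 and a total of 15, TMM scaling, robust quasi-likelihood F-test) on the 18 libraries of a line, or on all 36 for differences between lines. Benjamini-Hochberg adjustment ran over every gene tested, 13357 in E0771, 14772 in AT-3 and 15969 in both together, and an adjusted p under 0.05 was a call. CPM are counts per 1000000 of the library total (31248794 to 52581746 counts) and are divided by union exon length of GENCODE vM21 where given per kb. Floors of 3 counts cover counting error only. No 2 libraries of a group agreed within sampling noise (chi-square per gene 4.84 to 100.0 over 36 pairs). The fit was tested on simulated data first. Alternatives were DESeq2 1.42.0, its size factors, other filters, a replicate block, halved counts, each library left out, the BMS204352 and KCl with BMS204352 libraries numbered 3 left out, and fits on only the libraries compared.

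The members and gene lists were chosen with earlier results of these data known. Any member may be named. Library values are given per comparison for the 4 called members that moved farthest, provided their average log2 CPM reached 2, and for others the text turns on; Tfeb, Tfe3, Mitf, Lamp1, Ctsd and Mcoln1 are given throughout, and each pathway list has up to 3 called genes with the smallest adjusted p.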

Additional observations from a re-analysis of the deposited data

Results flagged for a closer look

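A difference between lines or an interaction was tested directly and passed for 19 member results, and each is flagged for that reason. Of all genes, 3.99% passed for the NS11021 effect, 9.13% for KCl, 5.01% for BMS204352 and 1.62% for the interaction in E0771. A flag does not set the members apart from other genes. Calls held under every setting tried only for Naglu, Psap and Atp6v1f with NS11021, and for Grn, Psap, Lamp2, Lipa and Atp6v0e2 with KCl. The values are log2 differences, E0771 effect minus AT-3 effect unless stated.

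For NS11021 the differences were 1.437 for Cd68, 0.714 for Naglu, 0.522 for Neu1, 0.511 for Npc1, 0.493 for Atp6v1f, 0.342 for Grn, 0.33 for Psap and 0.291 for Atp6v1a. For KCl they were 0.405 for Grn, 0.38 for Glb1, 0.346 for Psap, 0.311 for Lamp2, 0.311 for Tpp1, -0.513 for Lipa and -2.562 for Atp6v0e2, which was at low counts in E0771. For BMS204352 they were 0.638 for Naglu, -0.407 for Cd63 and -0.378 for Atp6v0c. Within E0771 the interaction of KCl with BMS204352 was -0.236 for Ctsl, and its call was lost when any of 7 single libraries was left out.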

How the results depend on the processing

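Of 202 calls on single members, 111 held under every setting tried and 0 changed direction. Counts of called members that moved by over 1.5 times were as follows. In AT-3, KCl against DMSO gave 2, and 4 by DESeq2, 5 with a replicate block, 6 without the BMS204352 libraries numbered 3 and 5 on only the libraries compared. BMS204352 against DMSO gave 10, and 4 and 1 in those last 2 settings. KCl with BMS204352 against KCl gave 2, and 4 by DESeq2, 1 with no filter and 5 with the block. NS11021 against BMS204352 gave 14, and 3 without the libraries numbered 3 and 0 on only the libraries compared; in KCl it gave 1, and 2 by DESeq2, 5 with the block and 2 on only the libraries compared. In E0771, NS11021 against BMS204352 gave 3, and 6 without the libraries numbered 3 and 0 on only those compared. The interaction of KCl and BMS204352 gave 1, and 3 by DESeq2, 2 with its size factors, 2 with the block, 4 without the libraries numbered 3 and 0 on only those compared. Between lines, the KCl effect gave 7, and 12 without the libraries numbered 3 and 11 on only those compared, the NS11021 effect 8, and 13 without the libraries numbered 3, and the BMS204352 effect 3, and 6 by DESeq2, 5 with the block, 5 without the libraries numbered 3 and 0 on only those compared. The cause of these shifts was not tested, beyond the fewer libraries in the last settings.

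Leaving out 1 library at a time gave, in AT-3, 1 to 2 calls for KCl, 2 to 20 for BMS204352, 0 to 2 for KCl with BMS204352 against KCl, 1 to 27 for NS11021 against BMS204352 and 0 to 1 for that pair in KCl. In E0771 it gave 18 to 20 for KCl, 18 to 21 for NS11021, 13 to 17 for BMS204352, 15 to 18 for KCl with NS11021 and 8 to 14 for KCl with BMS204352 against KCl, 1 to 4 for NS11021 against BMS204352, 9 to 14 for that pair in KCl and 0 to 3 for the interaction of KCl and BMS204352. Between lines it gave 35 to 38 for DMSO levels, 6 to 8 for the KCl effect, 3 to 8 for the NS11021 effect and 3 to 7 for the BMS204352 effect.

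The replicate numbers were not taken as pairing, since same-numbered libraries deviated together by a correlation of -0.022 to 0.34 in AT-3 (over 0.1 in 3 of 45 pairs, best with their own number in 40) and -0.041 to 0.155 in E0771 (1 of 45, and 23).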

Other observations

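Atp6v0d2, a V0 subunit gene best known from osteoclasts and macrophages and too low to be tested in either line, had 206 counts (4.28 CPM) in a single AT-3 library, BMS204352 library 3, the one that stands apart on the first principal component. Of the 18 AT-3 libraries, 14 had no count of it.

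The pump's a3 subunit gene Tcirg1, which is no member by its symbol, differed in its response between the lines. The KCl effect was higher in E0771 than in AT-3 (log2 0.43, adjusted p = 0.0198) and the NS11021 effect lower (log2 -0.49, adjusted p = 0.0164; edgeR's quasi-likelihood test).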
